A study of Sus scrofa with 14 samples.

Results

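Milk of sows holds many cells with RNA of MMP8, S100A8 and S100A12, and these cells are described here. A cell was taken when it had UMIs of at least 3 of the 6 genes MMP8, S100A8, S100A12, CSTA, SERPINB1 and C4BPA, MMP8 among them, and 0 UMIs of the 4 exclusion genes CLDN4 and EPCAM (epithelium), CD3D (T cells) and GPNMB (macrophages). A unique molecular identifier (UMI) marks 1 captured RNA molecule. In total, 2370 of 32085 milk cells met the rule, among the 158918 nuclei and cells of the series that passed the same limits (300 genes or more, mitochondrial UMIs no more than 25%). The rule reads the same counts as the results, so its genes and the contrast with the rest of the cells are given as description. The gene lists and markers used below were chosen with earlier results of these data known, so counts over them are description too.

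Neutrophils are short-lived granulocytes that leave the blood early in inflammation and are a regular part of milk. They are filled in the bone marrow with azurophil granules (myeloperoxidase, elastase), then specific granules (MMP8, the neutrophil collagenase) and gelatinase granules (MMP9), so mature cells keep granule proteins whose RNA has largely gone. Their cytosol is rich in the calcium-binding proteins S100A8, S100A9 and S100A12, and they sense their surroundings through receptors such as CSF3R, the receptor of the growth factor G-CSF, and C5AR1, the receptor of complement C5a.

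The study followed the mammary gland of multiparous pigs at day 90 of gestation (G90), days 0 (L0) and 20 (L20) of lactation, and days 2 (PI2) and 7 (PI7) of natural involution. Single-nucleus libraries came from 10 glands, 2 sows at each stage, and single-cell libraries from 1 sample of colostrum and 1 of mature milk, labelled L0 and L20. No animal was treated or genetically altered, and both milk samples are labelled mammary gland as tissue. With 1 milk library at each stage, no test between stages was possible, the intervals given cover counting error only, and sow, milking, library and stage cannot be told apart.

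The 2 milk libraries held 22257 and 18733 barcodes with 84971814 and 46923887 UMIs, of which 17571 (labelled L0) and 14514 (labelled L20) cells were kept. EPCAM was found in 16.8% of the kept cells of the library labelled L0 and in 4.33% of those of the library labelled L20, and CD3D in 1.37% and 4.83%. The study's text gives no number of cells and no epithelial or T cell share for each milk sample, only the total of cells and the macrophage shares. These values could therefore not be set beside the study's own. The study reports more macrophages in colostrum than in mature milk, by markers that include S100A8 and CD14. Cells that met the rule with MMP8 not required were 35.8% of the kept cells labelled L0 and 19.5% of those labelled L20. Macrophages chosen by GPNMB and a further marker went the other way, at 1.20% and 6.21%. Neither set was chosen by the study's macrophage markers as a whole, so neither is its macrophage class. Hence which library is colostrum cannot be told from the files, and each is named below by its label only. The libraries shared 284 barcodes, and 1 barcode belonged to a cell of the set described here in both libraries. How many cells of the set carried any shared barcode was not counted.

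The places of the rule genes were read from RefSeq for Sscrofa11.1, the build of the counts. MMP8 lies on the minus strand of chromosome 9 (chr9:33384034-33397637). S100A8 (chr4:96209670-96210603) and S100A12 (chr4:96225691-96227030) are neighbours on the plus strand of chromosome 4, and SERPINB1 lies on chromosome 7 (chr7:1684212-1693313, minus strand). The 250 bases before the gene start of MMP8, S100A8 and S100A12 are shown because these 3 genes define the cells, and cells with more MMP8 also held more S100A8 and S100A12. The bases were read 5′ to 3′ on the strand of the gene from chr9:33397638-33397887, chr4:96209420-96209669 and chr4:96225441-96225690. Capitals mark matches, on either strand, to the core of the PU.1 motif (GAGGAA), a C/EBP motif (TTGCNNAA) or an AP-1 motif (TGANTCA), sites of factors known from myeloid cells.
MMP8: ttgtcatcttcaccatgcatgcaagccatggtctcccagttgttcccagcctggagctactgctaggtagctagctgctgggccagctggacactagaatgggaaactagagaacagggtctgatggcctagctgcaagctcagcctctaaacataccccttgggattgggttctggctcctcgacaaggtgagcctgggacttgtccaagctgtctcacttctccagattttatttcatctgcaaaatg
S100A8: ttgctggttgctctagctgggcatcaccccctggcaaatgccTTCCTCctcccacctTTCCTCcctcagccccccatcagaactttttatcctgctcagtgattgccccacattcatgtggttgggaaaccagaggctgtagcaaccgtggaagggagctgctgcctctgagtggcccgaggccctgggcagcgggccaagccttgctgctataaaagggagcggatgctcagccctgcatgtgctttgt
S100A12: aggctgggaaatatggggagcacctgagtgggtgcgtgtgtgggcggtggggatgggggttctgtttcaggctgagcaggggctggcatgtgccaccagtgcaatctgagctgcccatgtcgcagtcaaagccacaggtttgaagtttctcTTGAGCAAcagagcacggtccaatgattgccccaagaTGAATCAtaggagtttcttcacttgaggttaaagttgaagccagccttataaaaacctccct
The S100A8 window held the PU.1 core on the reverse strand, starting 208 and 193 bases before the gene start. The S100A12 window held a C/EBP match starting 99 bases and an AP-1 match starting 62 bases before it, and no searched motif was found in the MMP8 window. Among 19559 windows of the same length before protein-coding genes, 22.0% held the PU.1 core, 8.22% the C/EBP motif and 5.27% the AP-1 motif, and a match is a run of letters, not a measured site.

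The MMP8 and S100A8 cells made up 1844 of 17571 kept cells in the library labelled L0, 10.5% (95% exact binomial interval 10.05 to 10.96), and 526 of 14514 in the library labelled L20, 3.62% (3.33 to 3.94). The share was thus 6.87 percentage points lower, or 2.90-fold lower, in the library labelled L20. It was 5.16-fold lower with limits of 500 genes and 10% mitochondrial UMIs, and 1.84-fold lower with MMP8 not required. The cells were small in RNA, with a median of 1472 UMIs and 532.5 genes in the library labelled L0 and 1256.5 UMIs and 435 genes in the library labelled L20. The poorest deposited barcodes held 662 and 759 UMIs, so both shares count only cells above these depths. Mitochondrial UMIs were low, with medians of 1.14% and 0.918%.

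Per cell, the rule genes differed widely in depth. MMP8 had a median of 4 UMIs (quartiles 2 and 9, highest 91) in the library labelled L0 and of 2 UMIs (quartiles 1 and 6, highest 31) in the library labelled L20. S100A12 was the deepest, with medians of 64 and 40 UMIs per cell, and S100A8 followed with 16 and 13. C4BPA, the alpha chain of the C4b-binding protein that restrains complement, had medians of 7 and 3 UMIs, and SERPINB1, an inhibitor of neutrophil serine proteases, of 2 and 0. CSTA, the cysteine protease inhibitor cystatin A, was found in 15.1% of the cells of the library labelled L0 and in 7.98% of the other. The set is therefore carried by S100A12, S100A8 and C4BPA next to MMP8, while CSTA marks only a small part of it.

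Free RNA in milk can give UMIs in cells that do not make a gene, and its amount was not measured here. Shares of cells with a UMI were set beside epithelial cells and T cells after each cell was thinned to 900 UMIs. Thinning evens out depth and does not measure free RNA. The median depths before thinning were 18741 and 10980 UMIs in epithelial cells and 2018 and 2019 in T cells. S100A8 was seen in 95.5% (labelled L0) and 96.5% (labelled L20) of the MMP8 and S100A8 cells, and in 3.73% and 5.66% of epithelial cells and 3.45% and 3.83% of T cells. Before thinning, the S100A8 shares were 96.9% and 97.9% in the set, 45.8% and 29.1% in epithelial cells, and 11.4% and 9.45% in T cells. CSF3R, which the rule did not use, was seen in 74.9% and 81.9% of the set, in 3.06% and 2.83% of epithelial cells and in 4.60% and 7.10% of T cells (unthinned, 87.3% and 90.1%, 36.9% and 29.6%, and 7.95% and 14.7%). MMP25, a membrane-bound metalloproteinase of leukocytes, was rarer, with 19.0% and 12.3% of the set against at most 1.15% of epithelial or T cells at 900 UMIs. Milk protein RNA behaved in the other way: CSN2 (beta-casein) was found in 97.8% of the set and in 98.9% of T cells in the library labelled L0, and in 39.1% and 32.0% in the library labelled L20.

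The cell type was checked against markers outside the rule. Levels are UMIs summed over the cells of a set and scaled to 1000000 UMIs of that set (CPM), which do not account for gene length. The 5 further neutrophil markers reported here (CSF3R, MMP9, MMP25, TREM1 and ITGAM) were all higher in the set than in the other kept milk cells in both libraries, and 4, all but MMP9, were higher than in macrophages in both. Their summed level was 4505 and 4667 CPM in the set, 738 and 1220 in the other kept cells and 534 and 541 in macrophages. The macrophages themselves were chosen with GPNMB, CD163, CSF1R, MRC1 and MSR1, so that only markers outside this choice were set against them. All 7 of these (C1QA, C1QB, C1QC, MARCO, CD68, CCR2 and VCAN) were lower in the set than in macrophages in both libraries, with sums of 216 and 255 CPM against 4765 and 1992. CD68 and VCAN were the highest of the 7 in the set, at 49.1 and 150 CPM and at 107 and 84.9 CPM. CD14, the coreceptor of lipopolysaccharide and a marker of monocytes and macrophages as well, went the other way, at 1366 and 840 CPM in the set and 305 and 236 CPM in macrophages. The study's own marker list places MMP8, CSF3R, IL1R2 and S100A11 under monocytes, and S100A8, CD14, CD24 and TNFAIP6 under macrophages. The cells are called neutrophil-like on the neutrophil markers, and a share of monocytes or macrophages among them was not tested. S100A9, CXCR1, CXCR2, FPR1 and FCGR3A have no symbol in the files and were not analysed here.

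**Figure D1:**
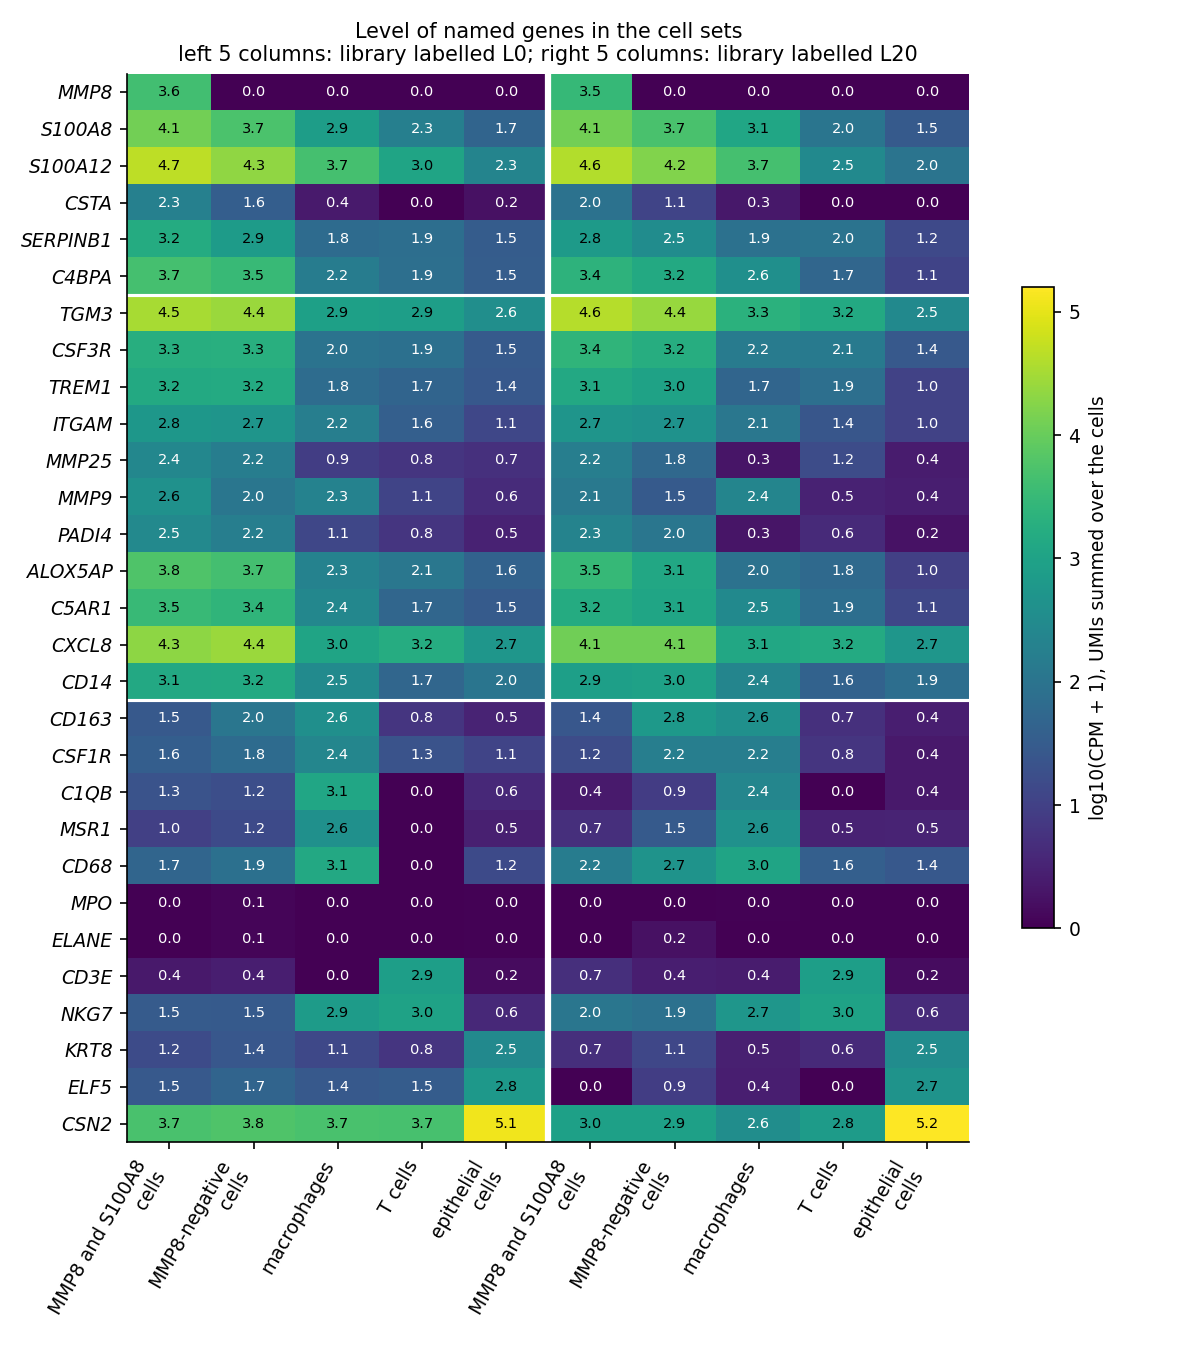
Levels, as log10(CPM + 1), of 29 genes in the MMP8 and S100A8 cells and in 4 other sets of milk cells. Rows above the first white line are rule genes, rows down to the second are genes of neutrophils and other myeloid cells, and the rest are markers of other cells and granules. The left 5 columns are the library labelled L0 and the right 5 the library labelled L20. Each of CSF3R, TREM1 and MMP25 was higher in the first and second column of each library than in the others. MPO was at 0.0 in the set, and CSN2 was seen in every set.

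The highest genes of the set included calcium-binding proteins, a transglutaminase, a chemokine and a granule proteoglycan. S100A12 was the highest gene with a symbol by the mean of both libraries, at 47951 CPM (labelled L0) and 40426 CPM (labelled L20). TGM3, a transglutaminase that links proteins, followed at 33154 and 41414 CPM, and CXCL8, the chemokine that draws neutrophils, at 21024 and 11927 CPM. SRGN, the proteoglycan on which granule proteins are packed, stood at 13616 and 15852 CPM, and S100A8 at 12313 and 12610 CPM. SAMSN1, CD24, TMSB4X, S100A11 and ACTB completed the 10 highest, between 4108 and 9068 CPM in the library labelled L0. A gene without a symbol, ENSSSCG00000048856, was higher than all of these at 81611 and 119783 CPM, but it was high in the other kept cells too, at 37381 and 58816 CPM. Another, ENSSSCG00000014540, stood at 27092 and 34658 CPM in the set, above CXCL8, and at 15689 and 33599 CPM in the other kept cells.

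Against the other kept milk cells, 187 of 11342 genes (1.65%) were at least 4-fold higher in the set in both libraries and 2933 (25.9%) at least 4-fold lower. This contrast was used by the rule and is description only. Ranked by the smaller fold of both libraries, the genes after the rule genes MMP8 and CSTA were MS4A8 (22.4 and 20.0-fold), SULT1A3, a sulfotransferase (14.7 and 13.5-fold), and MMP25 (10.8 and 14.0-fold). ADGRG3, an adhesion receptor known from granulocytes, was 11.4 and 9.98-fold higher, and PADI4, the enzyme that citrullinates histones in neutrophil traps, 12.7 and 9.60-fold. ALOX5AP, which hands arachidonic acid to 5-lipoxygenase for leukotriene synthesis, stood at 5763 and 2995 CPM against 588 and 253 CPM in the other cells. The transcription factor NFE2, the signal regulator RGS18, the checkpoint protein VSIR and FFAR2, a receptor of short-chain fatty acids, were 7.32 to 10.6-fold higher. Over the MMP8-negative cells described further on, MMP25, ADGRG3, PADI4, ALOX5AP, NFE2, RGS18, VSIR and FFAR2 were under 2-fold higher in the library labelled L0. There and in the library labelled L20, PADI4 was 1.70 and 1.94-fold higher, ALOX5AP 1.28 and 2.32-fold and FFAR2 1.22 and 2.14-fold. With limits of 500 genes and 10% mitochondrial UMIs, 446 genes were higher and 2803 lower. Without the exclusion genes the counts were 7 and 67, and with a median-of-ratios scaling 734 and 1518.

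Azurophil granule genes were nearly absent, and those of specific and gelatinase granules were split. Of the 5 azurophil genes with a symbol, MPO, ELANE and PRTN3 had 0 UMIs in the set in both libraries, and AZU1 and BPI had 1 and 3 UMIs in the library labelled L0 and 0 in the other. With 3032343 and 742452 UMIs in the set, 3 UMIs correspond to 0.989 and 4.04 CPM. Of the 10 specific and gelatinase granule genes with a symbol, 4 were under 5 CPM in both libraries. MMP8 stood at 4288 and 3036 CPM, MMP9 at 421 and 125 CPM, and MMP25 at 251 and 164 CPM. OLFM4, CD177, CHI3L1 and PTX3 had 6 UMIs or fewer in each library. ARG1 (arginase), an enzyme of neutrophil granules in humans and also of macrophages, stood at 162 and 349 CPM, below the MMP8-negative cells described further on (652 and 2373 CPM). LTF (lactoferrin) and PGLYRP1, a peptidoglycan-binding protein, stood at 170 and 28.3 CPM and at 647 and 124 CPM, but both were far higher in epithelial cells (2235 and 2120 CPM, and 16663 and 9869 CPM), and the part of free RNA in them was not tested.

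The receptors and the oxidase were measured well. C5AR1 stood at 3183 and 1618 CPM, CSF3R at 1812 and 2490 CPM and the amplifying receptor TREM1 at 1447 and 1364 CPM. The integrin chain ITGAM stood at 574 and 523 CPM, and the oxidase subunits NCF1 and NCF4 at 917 and 901 CPM and at 315 and 341 CPM. Among transcription factors, CEBPB (4156 and 4575 CPM) and SPI1, the gene of PU.1 (1425 and 987 CPM), were high, while CEBPE and GFI1, factors of granule-filling precursors, had 6 UMIs or fewer. The 5 genes of dividing cells summed to 11.2 and 5.39 CPM.

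Cells just inside and just outside the rule were compared as values only. Cells with 3 rule genes numbered 98 and 74, and S100A8 in them stood at 1259 CPM (labelled L0) and 4750 CPM (labelled L20). In cells with all 6 rule genes, 244 and 27 in number, it stood at 19058 and 21018 CPM. Just outside were 62 and 31 cells with MMP8 and 1 further rule gene (S100A8 at 115 and 226 CPM) and 29 and 15 with MMP8 alone. TGM3, which the rule did not use, stood at 13933 and 40039 CPM in cells with 3 rule genes, at 6724 and 20806 CPM in those with MMP8 and 1 more, and at 1498 and 14219 CPM in those with MMP8 alone. MMP9 stood at 12.9 and 63.6 CPM in cells with 3 rule genes and at 899 and 486 CPM in those with all 6. CD163 stood at 161 and 21.2 CPM in the former and at 4.15 and 21.1 CPM in the latter.

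The exclusion genes alone kept 554 cells out in the library labelled L0 (23.1% of the cells that met the rest of the rule) and 33 in the library labelled L20 (5.90%). In the library labelled L0 these cells had a median of 17998 UMIs and CSN2 at 116842 CPM. Of them, 176 (labelled L0) and 21 (labelled L20) had 1 UMI of an exclusion gene, with medians of 1711 and 1522 UMIs. S100A8 in them stood at 7639 and 11934 CPM, TGM3 at 22432 and 39502 CPM and CSN2 at 15529 and 1522 CPM, so that those of the library labelled L0 held less S100A8 and more CSN2 than the set.

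Within the set, S100A12, S100A8, CSTA and MMP9 were higher in cells with more MMP8, as were other genes such as SERPINB1, S100A11 and RAC2, while ISG15 and CD163 were lower in cells with 10 or more MMP8 UMIs than in cells with 1. Cells with 1 MMP8 UMI (455 and 186 cells) had S100A12 at 35947 and 30491 CPM, and cells with 10 or more (441 and 61 cells) at 58143 and 59239 CPM. S100A8 stood at 8858 and 9748 CPM in the first group and at 15171 and 17338 CPM in the last, and MMP9 at 249 and 64.3 CPM and at 584 and 271 CPM. CSTA was 104 and 32.1 CPM in the first group and 281 and 221 CPM in the last. The macrophage scavenger receptor CD163 ran the other way, at 69.6 and 36.2 CPM in cells with 1 MMP8 UMI and at 3.76 and 10.0 CPM in those with 10 or more, from 50, 9, 3 and 1 UMIs. ISG15 stood at 825 and 1125 CPM in the first group and at 608 and 652 CPM in the last. CXCL8 followed no order over the groups, with 21258 and 12187 CPM in the first, 22437 and 12921 CPM in cells with 2 to 4 MMP8 UMIs, and 19937 and 9994 CPM in the last. CCL4 was lower in the last group in the library labelled L0 only, with 1378 and 4073 CPM in the first group and 425 and 4244 CPM in the last. TGM3 stood at 28908 and 39910 CPM in the first group and at 34842 and 40918 CPM in the last, and CSF3R at 1734 and 2374 CPM in the first and at 1766 and 2378 CPM in the last. Median depth differed too, with 1330 and 1190 UMIs in the first group and 1636 and 1518 in the last, and its part in these values was not tested.

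**Figure D2:**
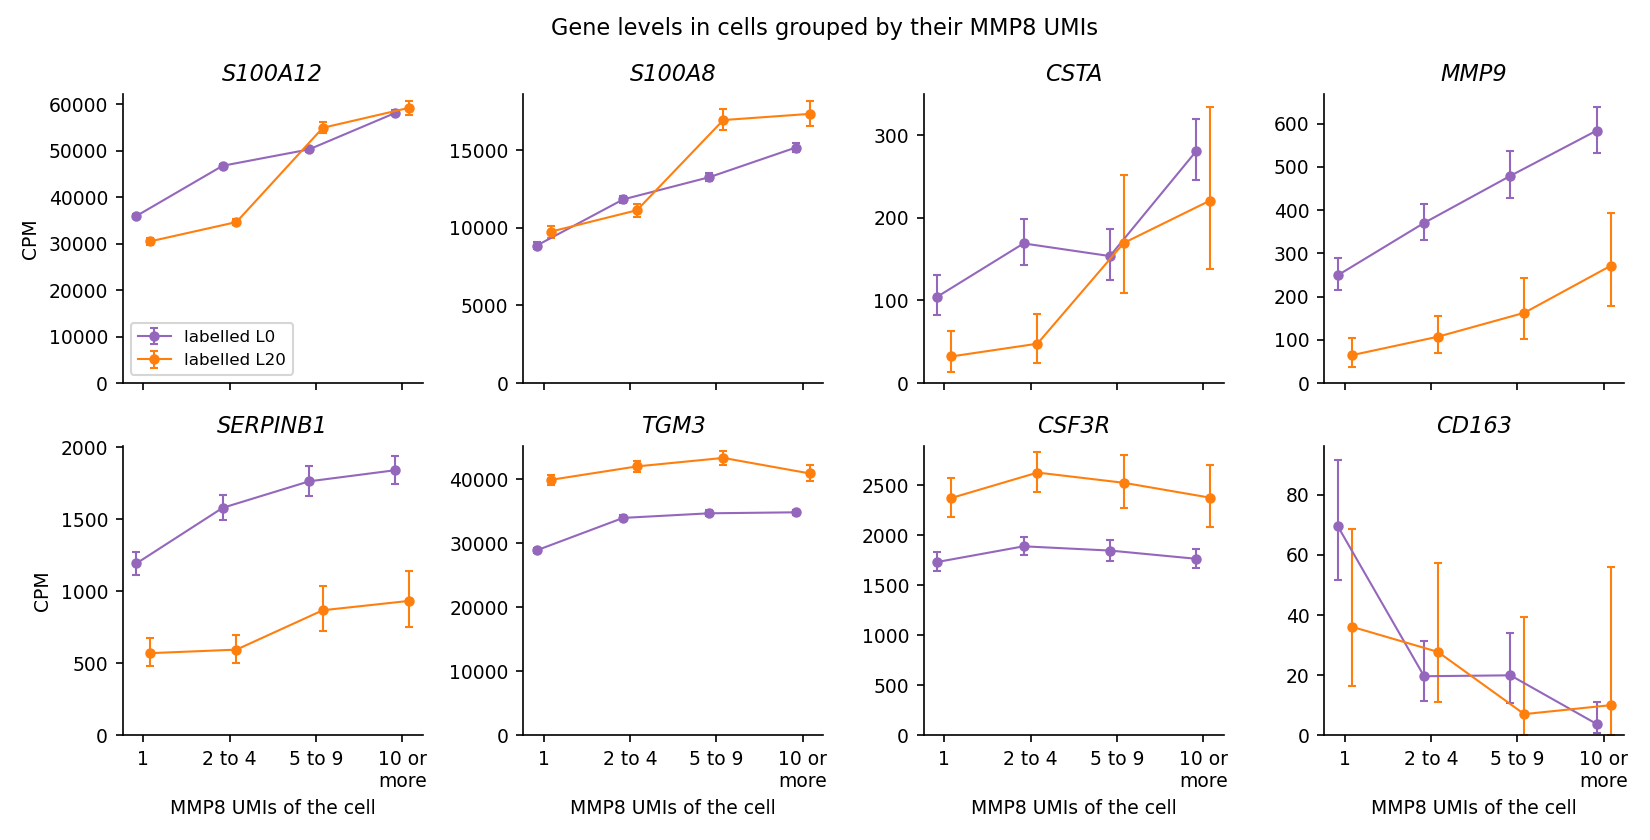
CPM of 8 genes in the MMP8 and S100A8 cells grouped by the number of MMP8 UMIs per cell, with 95% Poisson intervals of the summed counts. Purple marks the library labelled L0 and orange the library labelled L20. In both libraries S100A12, S100A8, CSTA, MMP9 and SERPINB1 were higher in cells with 10 or more MMP8 UMIs than in cells with 1, CSF3R was nearly level and CD163 was lower.

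Many milk cells had at least 3 of the other rule genes but no MMP8 UMI, 4451 (25.3%) in the library labelled L0 and 2307 (15.9%) in the library labelled L20. These MMP8-negative cells had lower median depths, of 1204 and 1181 UMIs, but their deepest cells were deeper. Their 90th percentiles were 2281 and 3226 UMIs, against 2410 and 2000 in the set. Their highest depths were 20106 and 19357 UMIs, against 11306 and 7069. Summed UMIs give such deep cells more weight. A cell with 0 MMP8 UMIs may still hold MMP8 RNA. In the set, 24.7% (labelled L0) and 35.4% (labelled L20) of the cells held 1 MMP8 UMI. After thinning, an MMP8 UMI was still seen in 86.4% and 85.6% of the set, although all its cells had MMP8 before. How many of the MMP8-negative cells hold MMP8 RNA was not tested, so they are not shown to be a separate kind of cell. Of 4977 genes, 27 (0.542%) were at least 2-fold higher in the MMP8 and S100A8 cells in both libraries and 355 (7.13%) at least 2-fold lower. The 27 include MMP8, which is at 0 in the MMP8-negative cells by definition, and the rule genes CSTA, S100A8 and S100A12. CSTA was 5.19-fold (95% Poisson interval 4.43 to 6.09) and 8.15-fold (5.499 to 12.2) higher, and MMP9 3.81-fold (3.47 to 4.18) and 4.38-fold (3.30 to 5.80). MS4A8 was 3.03 and 3.49-fold higher, TCN1, the vitamin B12 binder of specific granules, 2.62 and 3.66-fold, and S100A8 2.33 and 2.44-fold. TCN1 stood at 290 and 314 CPM in the set but at 400 and 374 CPM in epithelial cells, and the part of free RNA in it was not tested. S100A11, THY1, the kinase BMX and TSPO, a protein of the outer mitochondrial membrane, were also among the 27, but of these BMX alone kept its call in cells of 1000 to 2000 UMIs. CSF3R, at 1812 and 2490 CPM against 1944 and 1760 CPM, and TREM1, at 1447 and 1364 CPM against 1511 and 971 CPM, stayed under 2-fold.

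Some genes of monocytes, macrophages and antigen presentation were lower than in MMP8-negative cells. Of the macrophage markers 1 of 5 tested was at least 2-fold lower in both libraries (CD163), of the dendritic and monocyte markers 1 of 5 (CCR2) and of antigen presentation genes 3 of 4 (CD86, CD74 and CD40), with 0 higher in each list, beside the 7.13% of all genes. C1QA, with too few UMIs to be tested, stood at 13.9 and 2.69 CPM against 13.5 and 4.60 CPM. CCL8, a chemokine of monocytes, stood at 0.660 and 13.5 CPM against 28.6 and 199.9 CPM, from 2 and 10 UMIs in the set. F13A1, a coagulation factor made by macrophages, was 5.95 and 7.06-fold lower, and ARG1 4.02 and 6.80-fold lower. CD163 stood at 27.4 and 24.2 CPM against 107 and 623 CPM, and the class II molecule SLA-DMB at 3.96 and 4.04 CPM against 21.0 and 39.0 CPM. The macrophage marker list summed to 198 and 237 CPM in the set and to 349 and 1387 CPM in the MMP8-negative cells. When only cells of 1000 to 2000 UMIs were taken, 15 genes were higher, 12 of them among the 27, and 29 were lower, 16 of them among the 355. CD163 and F13A1 kept their call in these cells, CD86, CD74 and ARG1 lost it, and CCR2, CD40, CCL8 and SLA-DMB had too few UMIs to be tested. CD74 also lost its call with the median-of-ratios scaling, under which 239 genes were lower, and with at least 4 rule genes. With at least 4 rule genes in both kinds of cell, MMP8, CSTA and MMP9 alone were higher.

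Between the 2 libraries, the neutrophil-like cells differed in genes of inflammatory signalling and stress. Of 3942 genes with at least 50 UMIs, 336 (8.52%) were at least 2-fold higher in the set of the library labelled L20 and 695 (17.6%) at least 2-fold lower. The median log2 ratio of all these genes was −0.25, so levels are best read against that shift. Scaling by the median of ratios gave 483 higher and 487 lower genes, and the share of higher genes among those past 2-fold was 32.6% with CPM and 49.8% with the other scaling. With MMP8 not required, the cells held more higher than lower genes, 1315 and 873. Without the exclusion genes, 1229 were higher and 3431 lower. The minimum of 50 UMIs was summed over both sets, which held 3032343 (labelled L0) and 742452 (labelled L20) UMIs. A gene found in 1 set only thus passed at a lower CPM in the library labelled L0. With 1 UMI in both libraries as the only minimum, 1680 were higher and 1811 lower. The part of the minimum in the balance was not tested. These counts rest on 1 library each and carry no replicate check. The gene lists set beside them below were chosen with earlier results known, so a list that differs from all genes is not a test.

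**Figure D3:**
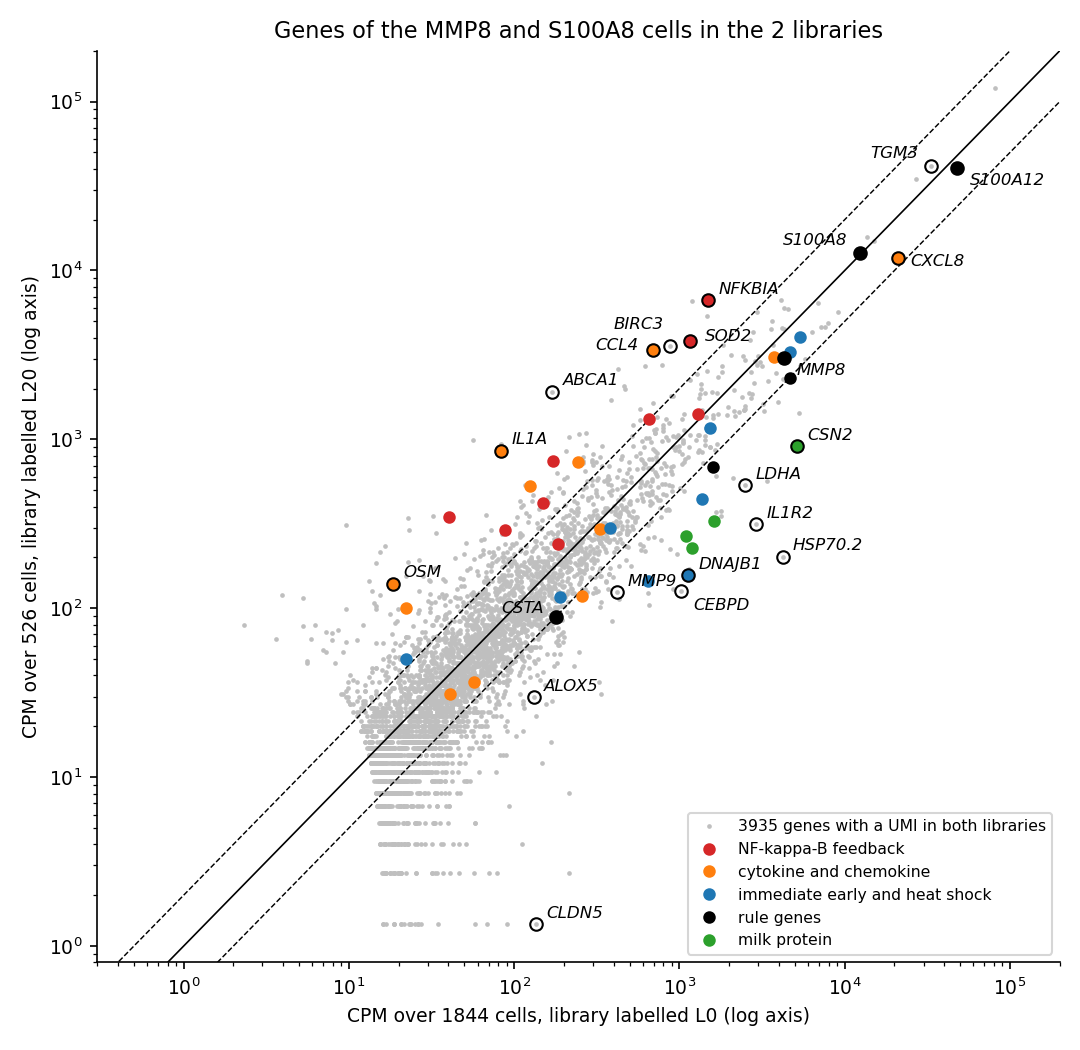
CPM of 3935 genes in the 1844 MMP8 and S100A8 cells of the library labelled L0 (x axis, log) and the 526 of the library labelled L20 (y axis, log). The solid line marks equal levels and the dashed lines 2-fold differences, and 7 genes with 0 UMIs in 1 library are not drawn. NFKBIA, IL1A, CCL4, SOD2 and ABCA1 lay above the upper dashed line, IL1R2, HSP70.2, CEBPD and CSN2 below the lower one, and S100A8 on the line of equal levels.

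Genes that NF-kappa-B switches on, many of which in turn restrain it, were higher in the library labelled L20. Of the 9 tested, 7 were at least 2-fold higher and 0 lower, beside 8.52% and 17.6% of all genes tested, with a median log2 ratio of 1.71. NFKBIA, the inhibitor that holds NF-kappa-B in the cytosol, stood at 1481 CPM (4491 UMIs) in the library labelled L0 and at 6697 CPM (4972 UMIs) in the library labelled L20, 4.52-fold higher (4.34 to 4.71). SOD2, the mitochondrial superoxide dismutase, was 3.28-fold higher (3.12 to 3.45), and ICAM1, an adhesion molecule, 8.57-fold (6.88 to 10.7). NFKBIZ, TNFAIP3, NFKB1 and TNFAIP6 were 2.01 to 4.34-fold higher, while PLAUR and TNIP1 were 1.08 and 1.29-fold higher. The difference was spread over the cells: at 900 UMIs a cell of the library labelled L0 held a median of 4 UMIs of these genes (quartiles 2 and 6) and one of the library labelled L20 a median of 12 (quartiles 8 and 18). The list summed to 6101 and 12820 CPM in MMP8-negative cells, 2079 and 3430 in macrophages, 1069 and 1646 in T cells and 527 and 674 in epithelial cells.

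Several cytokines were higher in the library labelled L20. Of 12 tested, 6 were at least 2-fold higher and 1 lower, beside the same 8.52% and 17.6% of all genes, and with the median-of-ratios scaling 6 and 0. IL1A, which signals through the interleukin 1 receptor, stood at 83.1 and 857 CPM, 10.3-fold higher (8.89 to 11.97), and was found at 900 UMIs in 4.49% and 33.1% of the cells. CCL4, a chemokine of the MIP-1 group, stood at 693 and 3385 CPM and was 4.89-fold higher (4.61 to 5.18), with a UMI in 13.3% and 40.9% of the cells. OSM (oncostatin M), TNF, CCL3L1 and CSF1, the growth factor of macrophages, were 3.02 to 7.58-fold higher. CXCL8 was lower, at 0.567 of its level in the library labelled L0 (0.555 to 0.580), and TNFSF13B, the B cell survival factor BAFF, at 0.463 (0.367 to 0.578), the call that the other scaling does not make. IL1A in MMP8-negative cells stood at 147 and 579 CPM and CCL4 at 1751 and 4201 CPM, so both were also higher there in the library labelled L20.

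Cytokine receptor and survival genes held single large differences. IL1R2, the decoy receptor that binds interleukin 1 without signalling, stood at 2912 CPM (8831 UMIs) in the library labelled L0 and at 314 CPM (233 UMIs) in the library labelled L20, 9.28-fold lower (8.15 to 10.6). In MMP8-negative cells it stood at 2910 and 680 CPM. BIRC3, an inhibitor of cell death, was 4.07-fold higher (3.85 to 4.29) and FAS, the death receptor, 4.74-fold (3.48 to 6.46). IFNGR1, a chain of the interferon gamma receptor, was 2.15-fold lower (1.93 to 2.40), and CSF3R was 1.37-fold higher (1.30 to 1.45). Of the 10 genes of this list tested, 3 were at least 2-fold higher and 2 lower, the latter near the 17.6% of all genes. With the median-of-ratios scaling 4 were higher and 1 lower, and IFNGR1 lost its call.

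The heat shock genes HSP70.2, DNAJB1 and HSPH1 were higher in the library labelled L0. HSP70.2, which was named for its large fold, was higher there in all 5 sets of milk cells. HSP70.2, an inducible chaperone, stood at 4203 CPM (12746 UMIs) and 202 CPM (150 UMIs) in the set, 20.8-fold lower (17.7 to 24.6) in the library labelled L20. It stood at 6824 and 631 CPM in MMP8-negative cells, 3739 and 324 in macrophages, 3427 and 421 in T cells and 367 and 114 in epithelial cells. Its partners DNAJB1 and HSPH1 were 7.14 and 4.503-fold lower in the set. The glucocorticoid-responsive FKBP5 had 215 and 2 UMIs, a ratio of 0.0380 (0.00457 to 0.139), and CEBPD, a C/EBP factor of acute responses, was 8.04-fold lower (6.55 to 9.98). Immediate early genes were uneven. JUN, a subunit of AP-1, was 3.07-fold lower and FOSB, another, 2.26-fold higher (67 and 37 UMIs), JUNB stood at 0.610 of its level in the library labelled L0, and FOS, EGR1, DUSP1 and ATF3 at 0.710 to 0.779, beside 0.842 for the median gene. Of the 9 genes of the immediate early and heat shock list tested, 3 were lower (HSPH1, DNAJB1 and JUN) and 1 higher, where 17.6% and 8.52% of all genes were.

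MMP9, ALOX5 and some genes of glycolysis were lower in the library labelled L20. MMP9 was 3.36-fold lower (2.72 to 4.20), ALOX5 (5-lipoxygenase) 4.43-fold (2.88 to 7.15), while its partner ALOX5AP stayed under 2-fold at 1.92-fold lower (1.84 to 2.01). SERPINB1 was 2.33-fold lower, and CSTA and C4BPA 2.02 and 2.01-fold, and all of these go under 2-fold with the median-of-ratios scaling. LDHA and ENO1, enzymes of glycolysis, were 4.67 and 4.48-fold lower, while G0S2, an inhibitor of lipolysis, was 3.51-fold higher (3.31 to 3.73). Of 8 glycolysis and hypoxia genes 4 were at least 2-fold lower and 1 higher, and with the median-of-ratios scaling 2 were lower (LDHA and ENO1) and 1 higher. Of 4 eicosanoid genes 2 were lower and 0 higher, and of 6 lipid handling genes 3 were higher and 0 lower, beside 8.52% higher and 17.6% lower over all genes tested. Of these 3, PLIN2 (69.3 and 147 CPM) and FABP4 (2.31 and 79.5 CPM) were far lower in the set than in macrophages (1660 and 2564 CPM, and 755 and 8742 CPM), which made up 1.20% and 6.21% of the kept cells, and the part of free RNA was not tested. MMP8 itself stood at 4288 and 3036 CPM, S100A8 at 12313 and 12610 CPM, and S100A12 at 47951 and 40426 CPM. Thus MMP8 was 1.41-fold lower (1.35 to 1.48), S100A8 1.02-fold higher and S100A12 at 0.843 of its level in the library labelled L0. The rule chose the cells by UMIs of these genes and of SERPINB1, CSTA and C4BPA, so their ratios are description only. Every cell of the set holds MMP8 by the rule. The MMP8-negative cells, 25.3% and 15.9% of the kept cells, are not in the MMP8 ratio.

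**Figure D4:**
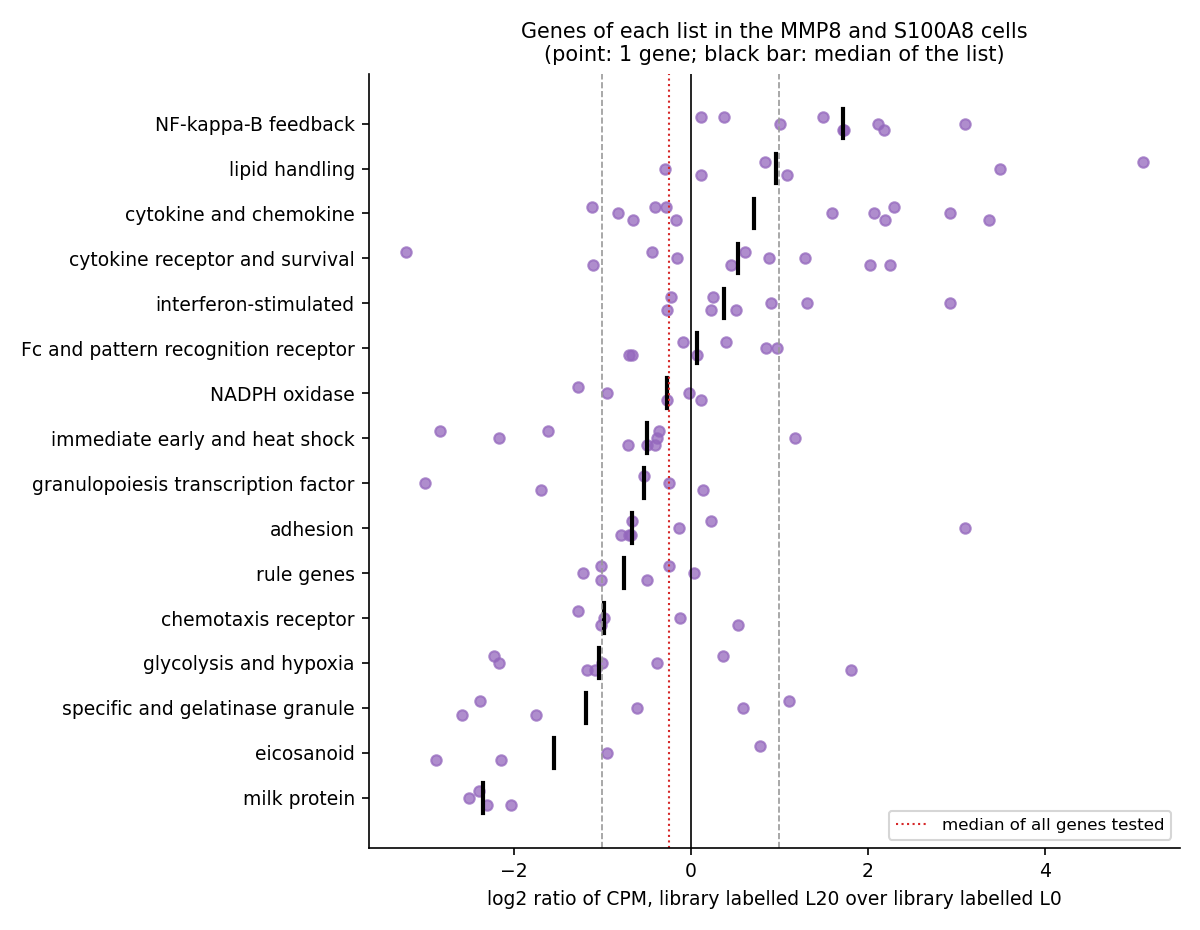
Log2 ratio of CPM in the MMP8 and S100A8 cells, library labelled L20 over library labelled L0, for the tested genes of 16 lists. Each point is a gene, the black bar is the median of the list, dashed lines mark 2-fold and the dotted line the median of all genes tested at −0.25. The NF-kappa-B list had a median of 1.71 and the milk protein list of −2.35.

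The largest differences were mostly in genes of few UMIs. Higher in the library labelled L20 were ABCA1, the cholesterol exporter, at 170 and 1921 CPM (11.3-fold, 10.2 to 12.5), SMPDL3B (15.0-fold, 11.5 to 19.9) and PDCD1LG2, a ligand of PD-1 (13.8-fold, 9.92 to 19.6). FABP4, CTSL and MS4A7 were 34.4, 32.7 and 18.2-fold higher from 7, 29 and 11 UMIs in the library labelled L0, but they were lower in the set than in the other kept cells, where FABP4 stood at 47.7 and 2808 CPM, and the part of free RNA was not tested. Lower were HS3ST3A1, an enzyme that modifies heparan sulphate, with 399 and 0 UMIs, and CLDN5, a tight junction protein known from endothelium, with 413 and 1 UMI (ratio 0.00989, 0.000250 to 0.0554). HS3ST3A1 was 32.56-fold lower when 0 was counted as 3 UMIs, and its Poisson interval began at 26.36-fold lower. HS3ST3A1 was seen in 8.98% of the cells of the library labelled L0 at 900 UMIs, against 0.149% of its epithelial cells, and stood at 103 and 0.242 CPM in MMP8-negative cells.

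Milk protein genes were lower in the set of the library labelled L20, while epithelial genes went both ways. CSN2 in the set stood at 5166 and 912 CPM, 5.66-fold lower (5.25 to 6.13) in the library labelled L20, and in macrophages at 5011 and 354 CPM. All 4 milk protein genes were at least 2-fold lower in the library labelled L20, beside 17.6% of all genes tested. So were ELF5, the only gene of the epithelial list that could be tested, and XDH and FGFBP1, which were named for their large folds. MGP, high in epithelial cells at 77.3 and 1959 CPM, was 21.7-fold higher in the set (12.6 to 39.7), from 16 and 85 UMIs. In epithelial cells CSN2 stood at 123195 and 154804 CPM, and the part of free milk RNA in the lower levels of the set was not tested. Leaving the milk proteins out of the totals gave 325 higher and 708 lower genes.

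Interferon-stimulated genes were uneven among the cells. At 900 UMIs the median cell held 0 UMIs (labelled L0) and 1 UMI (labelled L20) of 11 such genes, but the highest cells held 64 and 47, and 4.60% and 5.76% of the cells held at least 10. Of 8 tested between the libraries, MX1 (7.61-fold, 4.43 to 13.4) and ISG20 (2.49-fold, 2.08 to 2.97), both antiviral, were at least 2-fold higher in the library labelled L20 and 0 were lower, beside 8.52% and 17.6% of all genes. Before thinning, MX1 was found in 1.03% and 4.37% of the cells. The intervals do not allow for UMIs that fall together in few cells. ISG15, a ubiquitin-like modifier, stood at 676 and 964 CPM and IFIT1, which binds viral RNA, at 726 and 622 CPM, the latter with a direction that turns under the other scaling.

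In the gland, few nuclei met the rule. Of 126833 kept nuclei of 10 glands, 1 met the rule, in G90 replicate 1 (1 of 11428 nuclei). The other 9 glands had 0, which allows shares of nuclei that meet the rule of up to 0.0160% to 0.0321% by 3 counts and sets no limit on the share of such cells. Without the demand for MMP8, 13 nuclei met the rule, 7 of them in L20 replicate 2. MMP8 UMIs were found in 167 nuclei, 96 of them in L20 replicate 2 and 0 in PI2 replicate 1. S100A8 stood between 0 and 7.13 CPM and S100A12 between 0.0188 and 15.1 CPM over the glands, and both were highest in L20 replicate 1. Nuclei and whole cells differ in the RNA they hold, so the levels of gland and milk were set side by side and not compared.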

How the data were processed

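Single-cell RNA sequencing of milk (1 library labelled L0 and 1 labelled L20) and single-nucleus RNA sequencing of 10 glands were used, and the 2 spatial sections were not used here. With GEXSCOPE libraries and CeleScope on the Sscrofa11.1 genome, the authors obtained raw UMI counts per gene, and they deposited them for the barcodes called as cells. The annotation release they used was not given in the sources used here. Of 25511 and 22325 genes listed in the milk files, 14495 and 13810 had a symbol there, 629 and 612 took one from the reference, and the rest had none. Gene places and sequences come from the RefSeq annotation and genome of Sscrofa11.1, in which CSTA has no entry and C4BPA has 2.

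Cells with under 300 genes or over 25% of UMIs from 13 mitochondrial genes were left out. The members, the 28 gene lists and the markers were chosen with earlier results of these data known. Comparison cells were epithelial (UMIs of CLDN4 and EPCAM, none of MMP8, CD3D and GPNMB), T cells (CD3D and CD3E) and macrophages (GPNMB and 1 of CD163, CSF1R, MRC1 and MSR1). UMIs were summed over the cells of a set and given per 1000000 (CPM). Genes needed at least 50 UMIs, and the folds that counted were 2 between libraries, 4 against other kept cells and 2 against MMP8-negative cells. No test was made, since cells are not replicates. Intervals are exact at 95% (binomial for shares, Poisson for ratios), cover counting error only, and a count of 0 was read against 3 UMIs. For shares of cells with a UMI, cells were thinned to 900 UMIs, which left out 106 and 40 members. The comparison with MMP8-negative cells was added after the data were seen.

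Named genes are the rule genes and lists, the 10 highest genes (mitochondrial and ribosomal left out), the 20 largest folds over other kept cells, and the 12 largest folds between libraries in each direction. Genes named from the comparison with MMP8-negative cells (THY1, BMX and others) were picked after their values were seen. Some listed genes are not reported here. Doublets were called with Scrublet (scanpy 1.11.5), which marked 1 of 17571 and 0 of 14514 cells. A caller that marks so few has not worked, so doublets were in effect not removed, apart from cells with exclusion genes. Alternatives were stricter cell limits, at least 4 rule genes, MMP8 not required, no exclusion genes, thinning, other UMI minimums, median-of-ratios scaling, milk proteins left out of the totals, and, added later, cells of 1000 to 2000 UMIs. Sums were made in python 3.11.15 with scipy 1.17.1 and run on simulated Poisson counts, in which 50 of 3733 unchanged genes passed 2-fold. Such counts do not hold UMIs that fall together in few cells, so this was not checked.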

Additional observations from a re-analysis of the deposited data

Results flagged for a closer look

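Of the listed genes, 12 stood at least 1.5-fold on one side in the library labelled L0 and on the other side in the library labelled L20 when the MMP8 and S100A8 cells were set against other cells of their library. With 1 library each, none of these differences was tested. Set against the other kept milk cells, the cells of the library labelled L0 and then of the library labelled L20 had a ratio of 2.09 and 0.238 for the chemokine AMCF-II, 1.94 and 0.656 for ANXA1, and 1.97 and 0 for CCR7 (25 and 0 UMIs, from 0.108% of the cells of the library labelled L0). The ratios were 3.77 and 0.649 for the oxidase subunit CYBA and 4.84 and 0.512 for IL10. For the glycolysis genes LDHA and PKM they were 3.48 and 0.554, and 3.16 and 0.501, and for the chaperone DNAJB1 1.56 and 0.655. For the interferon-stimulated RSAD2 and USP18 they were 3.06 and 0.332, and 2.75 and 0.441, and for VCAN 1.72 and 0.400. The other kept cells are of different make-up in the libraries: epithelial cells were 7.63% and 1.47% of all kept cells, and macrophages 1.20% and 6.21%. Against the MMP8-negative cells, CSF1 had ratios of 0.587 and 1.69, PKM of 1.502 and 0.585, and RSAD2 of 1.53 and 0.286.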

How the results depend on the processing

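Of 57 values recomputed under another setting, 29 stayed near the reported one and 28 moved. The values with doublets left out are all among the 29 and could hardly move, since only 1 cell was marked. The 6 differences between the shares of the libraries kept their sign, and the other values are counts or shares and have none. The share of MMP8 and S100A8 cells (labelled L0, then L20) was 12.98% and 2.52% with limits of 500 genes and 10% mitochondrial UMIs, 9.94% and 3.11% with at least 4 rule genes, and 35.8% and 19.5% with MMP8 not required. Without the exclusion genes it was 13.6% in the library labelled L0. The difference in percentage points was then −10.5 with the stricter limits, −16.3 without MMP8 and −9.80 without the exclusion genes. Genes at least 2-fold higher in the library labelled L20 numbered 1315 with MMP8 not required (873 lower, so that the balance of 336 higher and 695 lower turned), 1229 without the exclusion genes, 174 with at least 200 UMIs and 1680 with 1 UMI in both libraries, and lower genes 3431, 232 and 1811 in the last 3 settings. Against other kept cells, the counts were 446 higher with the stricter limits, 7 higher and 67 lower without the exclusion genes, and 734 higher and 1518 lower with median-of-ratios scaling. Against MMP8-negative cells they were 15 higher and 29 lower in cells of 1000 to 2000 UMIs, 3 and 70 with at least 4 rule genes, and 42 higher with median-of-ratios scaling. Of gland nuclei, 13 met the rule with MMP8 not required. The causes were not tested. No paired analysis was possible because each milk stage has 1 library and no result comes from a test, and for the same reason no replicate could be left out. Low depth limits genes such as CSTA, since a cell with 0 UMIs may still hold its RNA.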
